A study of Ascaris suum with 28 samples.

Results

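Translation before the first cleavage of Ascaris suum, the large intestinal roundworm of pigs, was sampled by polysome gradients of zygotes on day 0 and of 1-cell embryos on day 1. These gradients are 2 of the 28 samples of the series, taken by their labels, and each gave a free, a middle and a heavy column of RPKM (reads per kilobase of transcript, scaled to library size). The day 0 zygotes came from region 4 of the uterus of worms from a North American wild population, the stage counted as 0 hr. The day 1 embryos were such zygotes incubated at 30 °C in acid buffer. Eggs of many females were pooled, each day has 1 gradient, and the fractions of a pool were combined before sequencing, so no fraction has a replicate of its own day. Egg coats were removed at 4 °C for 180 min on day 0 and at 30 °C for 90 min on day 1, so the effect of this step and that of the day cannot be told apart.

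In a polysome gradient an mRNA sinks with the ribosomes it carries. Messages without ribosomes stay in the free part near the top, and those read by many ribosomes reach the heavy part. An egg stores maternal mRNAs, some kept out of translation until after fertilization and many cleared later, and the embryo then adds messages from its own genome. In Ascaris that transcription is known to begin in the zygote, before the pronuclei fuse, and the first division comes late. A longer coding sequence has room for more ribosomes, and transcript length was not used here. The labels do not say which parts of the gradient the free, middle and heavy pools held.

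The position of a gene on a day is the log2(RPKM + 1) of the heavy column minus that of the free column, minus the median of that difference over all genes tested on that day. A positive position lies on the heavy side of the day's median and a negative one on the free side. Of 15399 genes, 11500 had a mean of RPKM 1 or more over the 6 columns and were used. As deposited, the median heavy minus free difference was -0.39 on day 0 and -0.12 on day 1. The column totals ran from 236085.8 RPKM in the day 0 heavy fraction to 660503.2 in the day 0 middle fraction. Between 9893 and 12180 genes reached RPKM 1 in a column, and the 10 most abundant genes took between 8.2% and 15.25% of it. The middle column held the highest deposited value of the 3 for 9056 genes on day 0 and for 7749 on day 1. The heavy column was highest for 185 genes on day 0 and for 1187 on day 1. RPKM is a share of each library and the sequencing depth is unknown, so these counts do not say how much of an mRNA was in each fraction.

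The gradients were set against the poly(A) libraries to check their stage labels, since the files do not pair gene identifiers with names and no marker gene could be looked up. Across the 11500 genes, the mean of the 3 day 1 fractions was closest to the 24hr library of 1-cell embryos, with a Spearman correlation of 0.892. The mean of the day 0 fractions correlated at 0.916 with zygote4, the library of uterus region 4, and at 0.929 with zygote1, the library of region 1. The label of day 0 names region 4. These correlations are descriptions over genes of single libraries. They are of bulk RNA, in which fewer embryos carrying an mRNA and less of it per embryo cannot be told apart.

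Genes spread further apart between free and heavy fractions on day 1 than on day 0. On day 0, 545 genes (4.74% of those tested) lay 4-fold or more to the heavy side of the median and 436 (3.79%) lay 4-fold or more to the free side. On day 1 the counts were 1344 (11.7%) and 1132 (9.84%). The standard deviation of the position over genes was 1.16 log2 units on day 0 and 1.57 on day 1. It was also wider among the 1584 genes with a mean of RPKM 50 or more, at 1.21 and 1.60. On day 3 the standard deviation was 1.57, on day 5 it was 1.85 and on day 7 it was 1.12. With 1 gradient a day, the width of a single day has no error, and the difference between days was not tested. A larger pseudocount of 5 lowered the day 0 counts to 63 on the heavy side and 338 on the free side, and those of day 1 to 393 and 542.

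The step from free to middle and the step from middle to heavy both widened. For middle minus free, 91 genes (0.791%) were 4-fold above the median and 114 (0.991%) 4-fold below it on day 0. On day 1 these were 611 (5.31%) and 508 (4.42%). For heavy minus middle, only 2 genes (0.0174%) were 4-fold above and 79 (0.687%) 4-fold below on day 0. On day 1 the counts were 288 (2.5%) and 148 (1.29%). The standard deviation over genes was 0.89 log2 units for middle minus free and 0.62 for heavy minus middle on day 0, and 1.24 and 0.95 on day 1. Genes thus differed more between free and middle than between middle and heavy on both days. Among genes with a mean of RPKM 50 or more this held on day 0, at 0.92 and 0.55, and turned round on day 1, at 1.12 and 1.26.

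**Figure D1:**
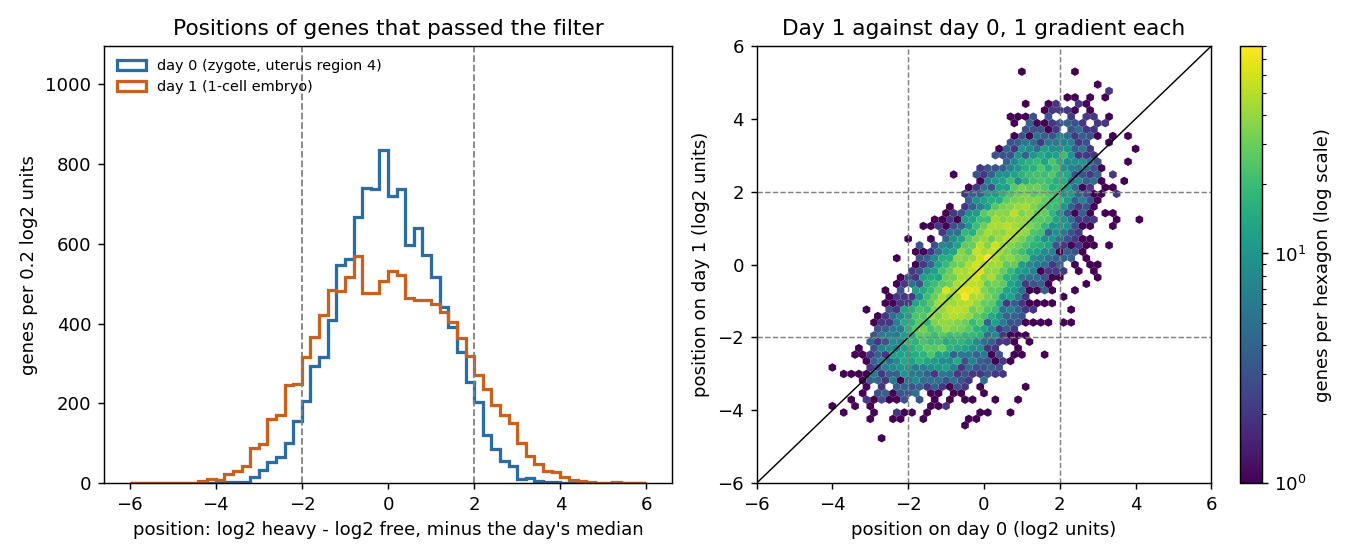
Left, number of genes per 0.2 log2 units of position on day 0 (blue) and day 1 (orange), with dashed lines at 4-fold from the day's median. Right, position on day 1 (vertical axis) against day 0 (horizontal axis), shaded by the number of genes on a log scale. The day 1 curve is the wider one, with 1344 and 1132 genes past the lines against 545 and 436 on day 0, and no gene is past the line on opposite sides.

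Most genes stood on the same side on both days. The Spearman correlation of the positions across 11500 genes was 0.795, and 9467 genes (82.3%) had the same sign. Of the genes 4-fold to the heavy side, 345 were shared, which is 63.3% of those of day 0 and 25.7% of those of day 1. Of the genes 4-fold to the free side, 292 were shared, 67.0% of those of day 0 and 25.8% of those of day 1. No gene passed 4-fold on opposite sides. The 2 days served as the only replication in a limma fit over the 6 columns with fraction and day as terms, which has 2 residual degrees of freedom and whose error is the spread between days. Heavy exceeded free, relative to the median gene, for 2683 genes (23.3%) and fell short of it for 2369 (20.6%) at a Benjamini-Hochberg adjusted p under 0.05. Before adjustment 6124 genes (53.3%) had a p under 0.05. Without the day term the counts were 1205 and 719, and without centring on the day's median they were 2051 and 3207.

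The named genes were taken by the size of their mean position of both days, among genes 4-fold to the same side on each day and with a mean of RPKM 10 or more, and the files give only their identifiers. The limma fit used the same columns as this choice, so the low adjusted p of these genes is no separate support. It called all 345 shared genes of the heavy side and all 292 of the free side. Picking the largest values also favours overstated sizes. ASU_06414 had the highest mean position of these, with RPKM of 25 in free, 294.4 in middle and 193.4 in heavy on day 0. On day 1 it had 4.3, 174.3 and 131.1 in the same order. It was low in the free column and high in both others on both days, and heavy minus free averaged 4.02 ± 0.47 (SE) above the median gene, with an adjusted p of 0.00102 in the limma fit. ASU_06257 had 2.5, 26.2 and 25.9 on day 0 and 0.1, 29.2 and 25.4 on day 1. Its middle and heavy values were about level on each day, and its difference was 4.01 ± 0.45 with the same limma adjusted p of 0.00102. With free values this low, the size of the difference depended on the pseudocount of 1. It was 5.484 with a pseudocount of 0.1 and 2.429 with one of 5. The poly(A) level of ASU_06414 was RPKM 355.0 in zygote4, 136.4 in 24hr and 234.8 in 116hr embryos, so it was abundant at each of these stages.

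ASU_13306 had the lowest mean position of these genes, with RPKM of 332.6 in free, 99.8 in middle and 15.7 in heavy on day 0, and 180.7, 93.5 and 10.6 on day 1. Its RPKM dropped at each step down the gradient on both days. Heavy minus free was -3.89 ± 0.41 (SE) relative to the median gene, with a limma adjusted p of 0.00102. ASU_04031 was more abundant, with 1121.9, 316.6 and 64.9 on day 0 and 639.8, 472.8 and 37.0 on day 1. Its difference was -3.83 ± 0.48, with the same limma adjusted p of 0.00102. Outside the gradients, ASU_13306 had RPKM 143.5 in the oocyte column, 80.8 in zygote4, 73.2 in 24hr and 12 in 116hr embryos. ASU_04031 had 482.3, 376.8, 333.1 and 131.0 in the same order. Both were present from the oocyte on, and were lower in 116hr embryos than in 24hr embryos.

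**Figure D2:**
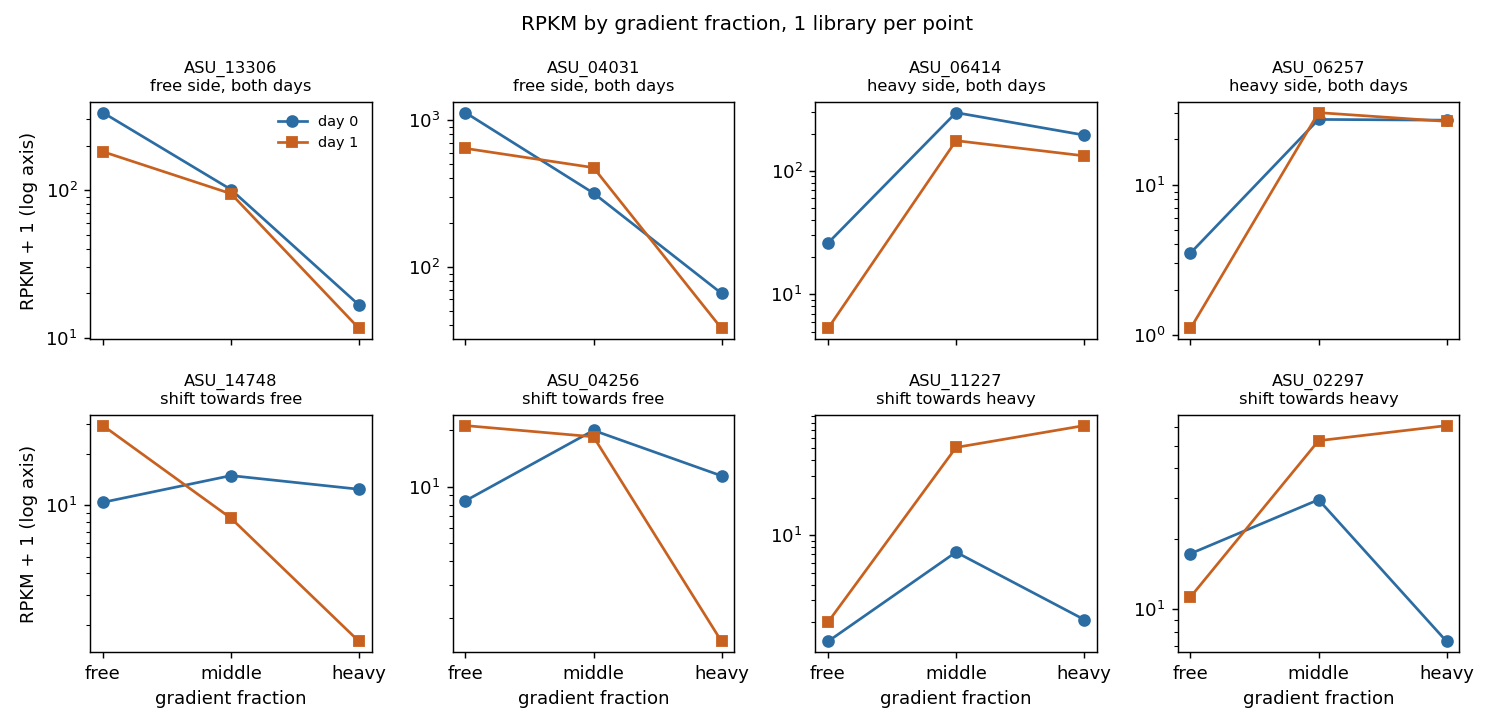
RPKM + 1 (vertical log axis, scaled for each gene) in the free, middle and heavy fractions of day 0 (blue circles) and day 1 (orange squares), 1 library per point, for the genes with the largest mean positions (top) and the largest shifts between the days (bottom). The upper 4 genes keep their direction from free to heavy on both days. In the lower row, ASU_14748 and ASU_04256 end low in heavy on day 1, and ASU_11227 and ASU_02297 end high.

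Between the days, 194 genes (1.69%) moved 4-fold or more towards heavy and 296 (2.57%) 4-fold or more towards free, with no test because each day has 1 gradient. Which direction held more genes depended on the settings, with 338 towards heavy and 208 towards free without the filter, 342 and 374 under quantile normalisation, and 72 and 69 with a pseudocount of 5. ASU_11227 had the largest shift towards heavy. Its RPKM was 0.4 in free, 6.3 in middle and 1.1 in heavy on day 0, and 1.0, 49.6 and 74.8 on day 1, a shift of 4.39 log2 units. Its poly(A) level was RPKM 3.8 in zygote4 and 108.9 in 24hr, so this gene was near the lower limit of the table on day 0. ASU_02297 had 16.3, 28.4 and 6.3 on day 0 and 10.3, 51.5 and 59.9 on day 1, a shift of 3.40. Its poly(A) level was RPKM 47.5 in zygote4 and 92.1 in 24hr, and on day 1 its free column was lower and its middle and heavy columns were higher.

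ASU_14748 had the largest shift towards free, with 9.4 in free, 13.9 in middle and 11.4 in heavy on day 0, and 28.2, 7.4 and 0.6 on day 1. Its position moved by -4.72 log2 units. ASU_04256 had 7.4, 18.9 and 10.4 on day 0 and 20.1, 17.4 and 0.5 on day 1, and moved by -4.53. Both were present in all 3 fractions on day 0 and under RPKM 1 in heavy on day 1. Their poly(A) levels were lower on day 1 as well, at RPKM 3.8 in zygote4 and 0.7 in 24hr for ASU_14748 and at 19.7 and 8.9 for ASU_04256.

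Position was highest at middling poly(A) levels and lower at both ends. Genes were put into 10 deciles of 1150 genes by their level in zygote4 for day 0 and in 24hr for day 1. On day 0 the median position was -0.23 in decile 1, with a median poly(A) level of RPKM 0.7. It was 0.57 in decile 6, at RPKM 17.8, and -0.70 in decile 10, at RPKM 127.4. The most abundant mRNAs of the zygote thus stood on the free side of the median, and 11.4% of them were 4-fold to the free side against 4.0% to the heavy side. On day 1 the median position was -0.88 in decile 1 (RPKM 1.2), 0.82 in decile 7 (RPKM 23.8) and -0.17 in decile 10 (RPKM 106.5). The peak lay in the step from free to middle. Relative to its day's median, middle minus free was -0.645, 0.423 and -0.404 in deciles 1, 6 and 10 on day 0. Heavy minus middle was 0.321, 0.049 and -0.329 there, with no peak between. In deciles 1, 7 and 10 of day 1 these were -1.052, 0.679 and -0.468, and 0.174, 0.083 and 0.141.

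On day 1 positions were spread furthest in the top decile. Of its genes 16.5% were 4-fold to the heavy side and 18.1% 4-fold to the free side, and the range between quartiles, 2.98 log2 units, was the widest of the deciles of that day. That range was 1.11 in decile 1 and 2.655 in decile 9 of day 1, and 1.795 in the top decile of day 0. Deciles 7, 8 and 9 of day 1 had larger shares to the heavy side than the top one, at 21.4%, 23.4% and 19.0%. Because position was not monotonic in level, the Spearman correlation across the 11500 genes says little, at 0.006 for day 0 with zygote4 and 0.244 for day 1 with 24hr. For heavy minus middle it was -0.285 on day 0 and 0.045 on day 1. In the lowest decile the median heavy values were RPKM 0.4 and 0.5, below the pseudocount of 1, which draws positions of such genes together.

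**Figure D3:**
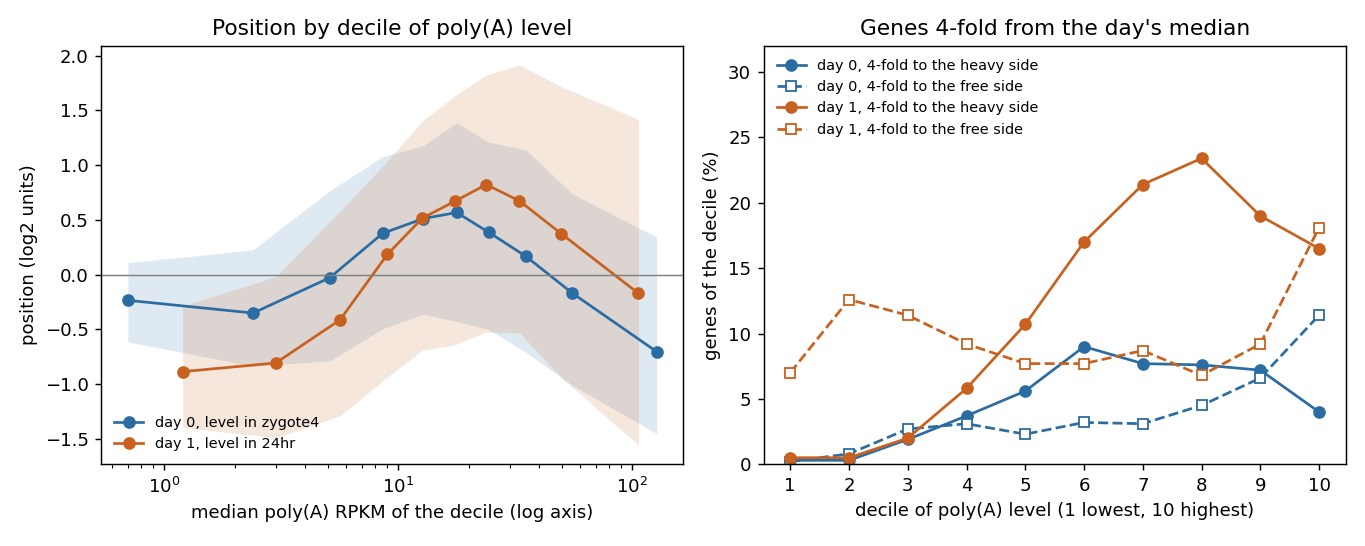
Left, median position (points) and range between quartiles (shading) of 10 deciles of 1150 genes, against the median poly(A) RPKM of the decile on a log axis, for day 0 by the zygote4 level and day 1 by the 24hr level. Right, percent of each decile 4-fold to the heavy side (filled) or free side (open). Both days peak at middling levels, and on day 1 the top decile has 16.5% of its genes far to the heavy side and 18.1% far to the free side.

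The genes were then classed by what had happened to their poly(A) level since the oocyte column, up to zygote4 for day 0 and up to 24hr for day 1. Lost genes had RPKM 10 or more in the oocyte column and were 4-fold or more lower on RPKM + 1. Gained genes had RPKM 1 or more in the oocyte column and now RPKM 10 or more, 4-fold or more higher. New genes were under RPKM 1 in the oocyte column and now at RPKM 10 or more, and kept genes had RPKM 10 or more in the oocyte column and were neither lost nor 4-fold higher. A poly(A) level does not separate the amount of an mRNA from the state of its tail. Which of the 5 oocyte libraries of the series the oocyte column holds is not given by its name. Some of these are labelled total or ribozero, so its library type is not known either. A change since the oocyte column and a difference of library type thus cannot be told apart.

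On day 1 the gained genes lay mostly on the heavy side of the day's median and the lost genes mostly on the free side. The quartiles of position were 0.003 and 2.165 for gained and -2.006 and 0.198 for lost genes, so the classes overlapped. Of 1067 gained genes that passed the filter, out of 1068, 303 (28.4%) were 4-fold to the heavy side, against 11.7% of all genes tested. To the free side 44 (4.1%) were 4-fold, against 9.84%. Their median position was 1.13, and their median RPKM was 10.6 in free, 30.5 in middle and 22.0 in heavy. Their median in 24hr was RPKM 41.2, while all genes tested include those under RPKM 10. Deciles 8 and 9 of the 24hr level, at RPKM 33.0 and 49.9, had 23.4% and 19.0% to the heavy side. To the free side these deciles had 6.8% and 9.2%. Of 593 lost genes that passed, out of 624, 14 (2.4%) were 4-fold to the heavy side and 151 (25.5%) 4-fold to the free side. Their median position was -0.83, and their median RPKM was 8.8 in free, 17.0 in middle and 4.1 in heavy. The lost genes had a median of RPKM 8.6 in 24hr. Deciles 3 and 4 of that level, at RPKM 5.65 and 9.0, had 2.0% and 5.8% to the heavy side. To the free side they had 11.4% and 9.2%. The low heavy-side share of lost genes was thus near that of their level, and their free-side share was higher. The 5087 kept genes that passed, out of 5092, were near the median at 0.29, with 14.3% to the heavy and 10.4% to the free side. By the limma fit of both days, heavy was higher than free, relative to the median gene, for 39.6% of the gained and 10.1% of the lost genes, against 23.3% of all. It was lower for 10.1% of the gained and 36.4% of the lost genes, against 20.6% of all. These limma shares were not matched for level.

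On day 0 the same order was present but small. The 630 gained genes that passed, out of 631, had a median position of 0.31, with 9.0% 4-fold to the heavy side and 1.6% to the free side. Over all genes tested the shares were 4.74% and 3.79%. The gained genes had a median of RPKM 42.55 in zygote4. Deciles 8 and 9 of that level, at RPKM 35.2 and 55.5, had 7.6% and 7.2% to the heavy side. To the free side these deciles had 4.5% and 6.6%. The 225 lost genes that passed, out of 254, had a median position of -0.28, with 3.1% to the heavy and 8.9% to the free side. The lost genes had a median of RPKM 8.4 in zygote4. Deciles 3 and 4 of that level, at RPKM 5.1 and 8.6, had 1.9% and 3.7% to the heavy side. To the free side they had 2.7% and 3.1%. The 5511 kept genes that passed, out of 5518, had a median position of 0.13, and the 140 new genes, out of 141, one of -0.22. The day 0 values depended on the start of the class. Counted from zygote1 in place of the oocyte column, the 100 gained genes had a median of 0.02 and the 5746 kept genes one of -0.03. The 29 lost genes then had a median of -0.12, with 6 (20.7%) 4-fold to the heavy side and 2 (6.9%) to the free side. That is the reverse order of shares, but on few genes. On day 1 the medians counted from zygote1 were 1.39 for 569 gained and -1.46 for 176 lost genes, further apart than from the oocyte column.

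New genes did not share the place of the gained ones. The 288 new genes of day 1 that passed, out of 291, had a median position of -0.11. Of them 8.3% were 4-fold to the heavy side and 10.4% to the free side, against 11.7% and 9.84% of all genes tested. All genes tested include those under RPKM 10 in 24hr, which new genes by definition are not. Decile 6 of the 24hr level, at a median of RPKM 17.5 beside 17.8 for new genes, had 17.0% and 7.7%. The median RPKM of the new genes was 8.65 in free, 14.5 in middle and 6.9 in heavy. Most were of low level, and the position was higher in the abundant ones. The median was -0.35 for 212 genes of RPKM 10 to 30 in 24hr, 0.45 for 64 genes of RPKM 30 to 100 and 1.31 for 12 genes of RPKM 100 or more. The last group is too small to carry a trend. The 386 gained genes of RPKM 10 to 30 had a median of 0.95.

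**Figure D4:**
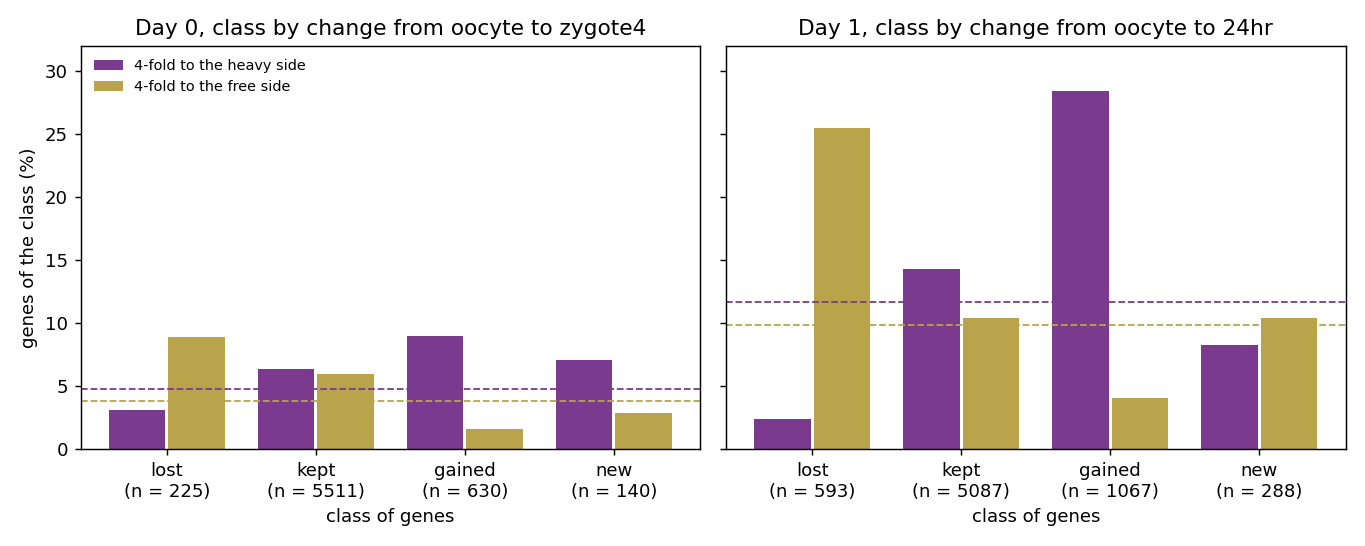
Percent of the genes of each class that lay 4-fold or more to the heavy side (purple) or free side (gold) of the day's median, for day 0 (left) and day 1 (right). Dashed lines give the same shares over all 11500 genes, whatever their poly(A) level. On day 1 28.4% of gained genes are far to the heavy side and 25.5% of lost genes far to the free side.

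The relation with gain and loss was steepest among abundant mRNAs. Among genes with RPKM 100 or more in 24hr, the median day 1 position was -2.57 for 26 genes that were 4-fold or more lower than in the oocyte column, and 69.2% of them were 4-fold to the free side. It was -2.05 for 49 genes that were 2- to 4-fold lower and -1.07 for 139 genes within 0.5 log2 units of their oocyte level. It was 0.49 for 137 genes 2- to 4-fold higher and 1.19 for 178 genes 4-fold or more higher, of which 33.1% were 4-fold to the heavy side. The median 24hr level of these 5 groups was RPKM 174.65, 147.3, 153.3, 142.4 and 156.75 in the same order. Their poly(A) levels were thus close, while genes lower than in the oocyte column stood towards free and genes higher than in it towards heavy. The median RPKM in free, middle and heavy was 717.55, 469.55 and 124.35 for the first of these groups and 64.95, 110.45 and 124.85 for the last.

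On day 0 the order was similar among genes of RPKM 100 or more in zygote4, with a smaller range. The median position was -1.38 for 16 genes 4-fold or more lower, -1.73 for 45 genes 2- to 4-fold lower and -1.14 for 237 genes within 0.5 log2 units. It was -0.42 for 206 genes 2- to 4-fold higher and -0.06 for 118 genes 4-fold or more higher. None of these groups lay on the heavy side. Below RPKM 10 the relation was absent or turned round when the change was counted from the oocyte column. On day 1 the median was -0.44 for 352 genes 4-fold or more lower and -0.63 for 454 genes 4-fold or more higher. Counted from zygote1, the day 1 median under RPKM 10 was higher at every step, from -1.21 for 76 genes 4-fold or more lower to 0.05 for 141 genes 4-fold or more higher. Across all 11500 genes the Spearman correlation of position with the change since the oocyte column was 0.025 on day 0 and 0.193 on day 1. With the change since zygote1 it was 0.286 and 0.417.

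**Figure D5:**
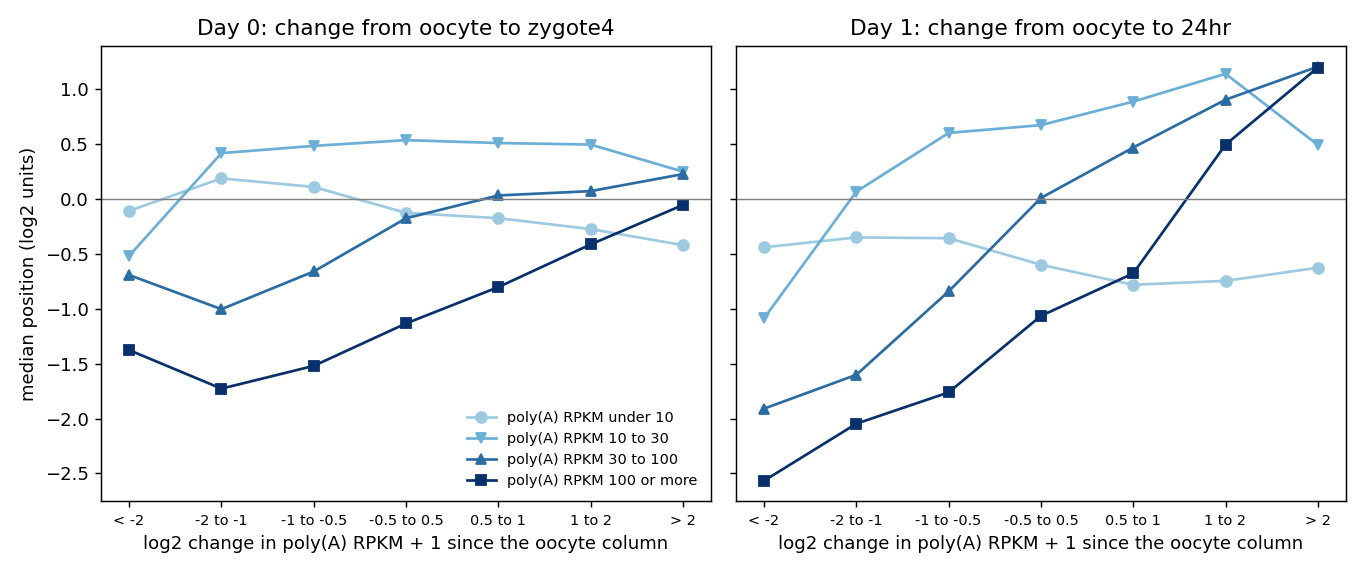
Median position (vertical axis, log2 units) by the log2 change in poly(A) RPKM + 1 since the oocyte column (horizontal axis), in 4 ranges of the poly(A) level, for day 0 (zygote4) and day 1 (24hr). Among genes of RPKM 100 or more on day 1 the median goes from -2.57 to 1.19 with rising change, and under RPKM 10 it shows no rise from the oocyte column. The leftmost day 0 points rest on few genes, with 16 at RPKM 100 or more.

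The most abundant genes of each class did not all follow their class. ASU_00235, with RPKM 18835.2 in the oocyte column, 3269.5 in zygote4 and 1384.2 in 24hr, had the highest oocyte level of the lost genes. Its RPKM was 18520.5 in free, 10740.8 in middle and 2283.9 in heavy on day 0, and 7712.5, 8598.9 and 922.4 on day 1. It stood on the free side on both days, at positions of -2.63 and -2.95. ASU_02609 had RPKM 10925.7 in the oocyte column, 3955.8 in zygote4 and 638.9 in 24hr. It had 6190.2, 9567.4 and 4932.9 in the fractions of day 0 and 4785.5, 4112.6 and 513.9 on day 1. This gene was at the median on day 0, at 0.06, and far to the free side on day 1, at -3.10, and of its 3 columns the heavy one was lower on day 1 by the largest factor.

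Of the gained genes, ASU_07417 had the highest 24hr level, with RPKM 818.1 in the oocyte column, 3475.3 in zygote4 and 3395.0 in 24hr. It had 5023.9, 4635.3 and 1817.1 in the fractions of day 0 and 3837.9, 2147.5 and 6438.9 on day 1. Its position went from -1.08 to 0.86 at a poly(A) level that was almost the same in both libraries. ASU_01514 had RPKM 75.0, 1774.9 and 1695.5 in the oocyte, zygote4 and 24hr columns. It had 1280.0, 813.0 and 286.8 in the fractions of day 0 and 1436.3, 697.5 and 487.7 on day 1. It stayed on the free side on both days, at -1.77 and -1.44, against the direction of its class.

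The 2 new genes of highest 24hr level lay nearer to heavy on day 1 than on day 0. ASU_12097, listed at RPKM 0.0 in the oocyte column, had 169.2 in zygote1, 1281.3 in zygote4 and 652.3 in 24hr. Its fractions held 841.3, 1403.5 and 730.3 on day 0 and 332.4, 192.8 and 1134.2 on day 1, and its position went from 0.18 to 1.88. ASU_14355 had 0.3 in the oocyte column, 217.6 in zygote4 and 473.3 in 24hr. Its fractions held 268.4, 134.5 and 56.8 on day 0 and 404.5, 230.0 and 494.0 on day 1, and its position went from -1.83 to 0.40. Like ASU_07417, these genes had their lowest day 1 value in the middle column.

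The timing of gain and loss was set against both days. Of the genes gained by 24hr, 499 were already gained in zygote4, with a median position of 0.38 on day 0 and 0.93 on day 1. The 568 that were gained only by 24hr had medians of 0.61 and 1.28, so they stood no lower on day 0. These groups were not matched for level, with median zygote4 levels of RPKM 40.6 for the 499 and 14.5 for the 568. Deciles 5 and 6 of the zygote4 level, at RPKM 12.8 and 17.8, had median day 0 positions of 0.51 and 0.57. Deciles 8 and 9, at RPKM 35.2 and 55.5, had 0.17 and -0.17. The 175 genes lost already in zygote4 had medians of -0.35 and -0.92, and the 418 lost only by 24hr had -0.36 and -0.78. The latter stood on the free side on day 0 while their median poly(A) level in zygote4 was still RPKM 27.95, against 9.45 in 24hr. The shift between the days was related weakly to the change in level between zygote4 and 24hr, with a Spearman correlation of 0.238 across 11500 genes. The median shift was -0.43 for 122 genes 4-fold or more lower in 24hr, 0.07 for 5252 genes within 0.5 log2 units, and 0.18 for 231 genes 4-fold or more higher.

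Genes far to one side on both days differed in their later poly(A) levels, which the choice of these genes did not use. The 345 genes on the heavy side had a median poly(A) level of RPKM 23.6 in zygote4, 29.9 in 24hr and 25.6 in 116hr embryos. Of the 335 with RPKM 10 or more in 24hr, 18 (5.4%) were 4-fold or more lower in 116hr embryos, against 1442 of 7162 (20.1%) over all genes tested with that level. The 292 genes on the free side had medians of RPKM 36.3 in zygote4 and 25.55 in 24hr. Their medians were 25.4 in the 46hr column, 15 in the 64hr column, 5.75 in 96hr and 3.1 in 116hr embryos. The name of the 64hr column does not say which 64hr library it holds, and some of these are labelled total or ribozero. Of the 231 with RPKM 10 or more in 24hr, 122 (52.8%) were 4-fold or more lower in 116hr embryos. The later levels of these single libraries have no replicate, and the shares were not tested.

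The sets also differed in their past. Of the 345 heavy-side genes 74 (21.4%) were gained and 3 (0.9%) lost between the oocyte column and 24hr, against 9.3% and 5.2% of all genes tested. Of the 292 free-side genes 11 (3.8%) were gained and 48 (16.4%) lost. Gained genes need RPKM 10 or more in 24hr, which 335 of the 345 and 231 of the 292 had, against 7162 of all 11500. Kept genes made up 58.3% and 64.0% of the sets, against 44.2% of all genes tested. They need RPKM 10 or more in the oocyte column, where the sets had medians of 13.5 and 38.15, against 10.6 over all genes. The shares of all genes were thus not matched for level. Among the 296 genes that moved 4-fold towards free from day 0 to day 1, 77 of 160 (48.1%) with RPKM 10 or more in 24hr were 4-fold or more lower in 116hr. Among the 194 that moved towards heavy it was 36 of 188 (19.1%), close to the share of all genes, and 30.4% of them were gained.

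Day 1 stood closer to day 3, whose embryos have 4 to 8 cells, than to day 0. Egg coats were removed at 30 °C for 90 min on days 1, 3, 5 and 7, and at 4 °C for 180 min on day 0 only. The effect of this step and that of the stage of day 0 thus cannot be told apart. The Spearman correlation of day 1 positions across the 11500 genes was 0.896 with day 3, 0.774 with day 5 and 0.66 with day 7, against 0.795 with day 0. Day 0 correlated at 0.727, 0.647 and 0.552 with days 3, 5 and 7. The genes gained by 24hr had median positions of 0.50, 1.13, 1.13, 0.72 and 0.26 on days 0, 1, 3, 5 and 7. Those lost by 24hr had -0.35, -0.83, -0.71, -0.51 and -0.22. Both medians were furthest from 0 on days 1 and 3 and lay nearer to it on day 7, when the spread of all positions was also the narrowest, at 1.12 log2 units. The heavy-side set of days 0 and 1 still had a median of 1.27 on day 7 and the free-side set one of -1.25.

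The difference between the days before cleavage and days 3 to 7 was tested gene by gene with limma over the 15 fraction columns. The fit had 6 residual degrees of freedom. Only the day 0 gradient was de-coated at 4 °C, and the fit had no term for this step. Of 12201 genes, 0 (0.0%) had a higher and 1 (0.0082%) a lower heavy minus free difference on days 0 and 1 at an adjusted p under 0.05, and 1626 (13.3%) had an unadjusted p under 0.05. The gene was ASU_08406. Its RPKM was 33.0 in free, 21.6 in middle and 7.6 in heavy on day 0, and 24.2, 13.0 and 3.3 on day 1. It was 11.2, 20.2 and 27.1 on day 3, 26.6, 48.2 and 199.6 on day 5, and 25.1, 54.5 and 146.3 on day 7. It stood on the free side on both early days and on the heavy side on all 3 later ones, a difference of -3.64 ± 0.46 (SE) with a Benjamini-Hochberg adjusted p of 0.0118 in the limma fit. The limma adjusted p of this gene was 0.115 without day 0, 0.142 without day 1, 0.274 without day 5 and 0.165 without day 7, above the threshold each time, and 0.0368 without day 3. The count of called genes was 130 without day 3 and 506 without centring on each day's median.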

How the data were processed

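The authors deposited RPKM values, rounded to 1 decimal, for 15399 genes. Of the 28 columns of their table, 6 hold the fractions of these 2 gradients. The submitters' processing notes name Bowtie 0.12.7. Not given in the sources used here were the build, the annotation and the read counter. Per the labels' protocols, poly(A) RNA was selected and primed at random, and sequencing differed among libraries. Whether fractions were scaled to one another is not stated, so each day was centred on its median. The RPKM values show no steps of whole reads, so no depth could be recovered and counting error is not given.

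Values were tested as log2(RPKM + 1), a scale that shrinks differences of genes with low RPKM. The test was limma 3.58.1 (R 4.3.3) with an intensity trend, and p-values were adjusted by Benjamini-Hochberg across every gene in a fit, with calls at 0.05. Fractions of a day come from 1 gradient, so day is a term, and the p-values measure the spread between days, which need not be biological replicates. Named genes were, per comparison, the 2 largest in each direction with a mean of RPKM 10 or more, and for each class the 2 of highest oocyte (lost) or 24hr level. Genes, classes and rules were chosen with earlier results of these data known. Alternatives were the pseudocount, the filter, the scaling, the reference fraction, the start of a class, the day term and leaving out each day. Tables were computed with Python 3.11.15 and pandas 2.3.3. No gene names or sequences were used here.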

Additional observations from a re-analysis of the deposited data

Results flagged for a closer look

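In the limma test of days 0 and 1 against days 3 to 7, 1 gene of 12201 had a heavy minus free difference that differed between the periods. ASU_08406 was lower on the early days by -3.64 log2 units (SE 0.46, Benjamini-Hochberg adjusted p of 0.0118), with negative positions on both early days and positive ones on all 3 later days. Its poly(A) level was RPKM 17.8 in zygote4, 8.5 in 24hr and 62.5 in 116hr embryos. Over 14 alternatives its limma adjusted p ran from 0.00284 to 1.0, above 0.05 in 8 of them, and its difference was negative in all 14.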

How the results depend on the processing

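Of 131 settings tried on results of groups 69 left the value within its limits. Of 50 tried on single genes 42 left the limma adjusted p below the threshold for calls. The sizes of single genes were not held to limits. Heavy minus free of ASU_06257 was 4.015 in the main fit, 5.484 with a pseudocount of 0.1 and 2.429 with one of 5. On day 1, gained and lost medians kept their direction in every setting run. Gained genes had 0.793 with a pseudocount of 5, 0.873 against the mean of free and middle, and 1.386 from zygote1. Lost genes had -1.076 and -0.514 with pseudocounts of 0.1 and 5, -1.576 at a filter of RPKM 10, -0.66 against free and middle, -0.593 at a 2-fold class limit and -1.46 from zygote1. New genes had -0.52 at a filter of RPKM 10. Kept genes turned to -0.064 at a filter of RPKM 10 and had 0.167 (pseudocount 5), 0.012 (free and middle) and 0.09 (zygote1).

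On day 0, the median of kept genes changed sign, to -0.014 (pseudocount 5), -0.021 (no filter), -0.069 (filter of RPKM 10), -0.055 (free and middle) and -0.029 (zygote1), and was 0.229, 0.179 and 0.213 with a pseudocount of 0.1, quantile normalisation and median-ratio scaling. Gained genes had 0.424, 0.123, 0.166, 0.499, 0.052 and 0.016 with pseudocounts of 0.1 and 5, no filter, quantile normalisation, free and middle, and zygote1. Lost genes had -0.93 (filter of RPKM 10), -0.028 (2-fold limit) and -0.115 (zygote1).

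Genes past 4-fold numbered 1890, 401 and 113 on day 0 and 3915, 935 and 673 on day 1 with pseudocounts of 0.1 and 5 and the mean of free and middle, and 4691 and 6514 at 2-fold. Shifts past 4-fold numbered 1212 and 141 with those pseudocounts, and 3342 at 2-fold. The correlation with level was 0.113 (pseudocount 0.1), -0.106 (filter of RPKM 10) and -0.127 (free and middle) on day 0. On day 1 it was 0.131 (filter of RPKM 10) and 0.099 (zygote4 level). At RPKM 100 or more, the median position of genes 2- to 4-fold higher minus that of genes 2- to 4-fold lower was 1.312 on day 0 and 2.539 on day 1, and 1.911 and 3.606 from zygote1, a start added after the data were seen.

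Without the day as a replicate block, limma called 1924 of 11500 genes for heavy minus free in place of 5052. With the block and a filter of RPKM 10 it called 3170 of 6051 genes. For the early against late days it called 0 without the block, 0 with a pseudocount of 0.1, quantile normalisation or median-ratio scaling, 5 with a pseudocount of 5, 506 without centring, and 0 to 130 leaving out each day. The causes were not tested. Leaving out a day of the 2-day fit leaves no residual degrees of freedom, so it could not be fitted. Depth is unknown, and positions of genes under about RPKM 1 are held together by the pseudocount.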
